A study of Mus with 8 samples.

Results

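The complement components and regulators described here are 9 genes, Cfb, C2, C3, C4b, Masp1, C3ar1, C5ar1, Cd55 and Serping1, taken by gene symbol from a table of 31269 symbols. All 9 were found and all 9 passed the filter on low counts, which left 17629 genes. The table holds RNA-seq read counts from 8 libraries of mouse uterus at day 6 of pseudopregnancy, when a sterile mating has left the uterus under progesterone. Of these, 4 carry the label of a myometrial deficiency of the progesterone receptor (PGR) and 4 are controls; the labels name no strain, age, allele or Cre driver. The labels also place the tissue around implantation sites, although a pseudopregnant uterus holds no embryo, and markers of trophoblast did not exceed 0.262 CPM (counts scaled to library size) in any library.

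Complement is a cascade of plasma and tissue proteins that marks surfaces and recruits phagocytes. Its classical and lectin pathways build a convertase from C4 and C2, and its alternative pathway builds another from C3 and factor B. Both cut C3, which releases the small peptide C3a, and C5, which releases C5a, and these peptides act on G protein-coupled receptors carried mainly by myeloid cells. Membrane and plasma regulators dismantle the convertases or block the proteases that start them. In the rat uterus C3 is known as a secreted epithelial protein that estrogen induces.

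Total counts per library ran from 70296369 to 72364750. Levels below are CPM after TMM scaling, and log2 differences are labelled deficient over control with their SE, from edgeR's quasi-likelihood test with Benjamini-Hochberg adjustment over all 17629 genes. Pgr measured 186.6, 183.9, 177.3 and 159.7 CPM in libraries 1 to 4 labelled deficient, against 131.3, 180.0, 143.8 and 170.9 CPM in controls 1 to 4 (log2 difference 0.18 ± 0.11, adjusted p = 0.338). The whole-tissue counts therefore show no lower Pgr in the group labelled deficient, so each direction rests on the label, and a loss in muscle cells alone would not be separated by this measure. In tissue RNA, fewer cells of a type and less RNA per cell cannot be told apart. The 7 smooth muscle markers were all present and summed to between 4083 and 4778 CPM in the libraries labelled deficient and between 4125 and 6161 CPM in controls, with 0 of 7 differences positive, beside 52.0% of all genes. Of the hepatocyte markers, 5 of 6, Alb among them, stayed under 1 CPM in every library. The labels do not say that each library came from its own animal, so each p reflects spread among libraries that may be technical.

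No complement gene passed the adjusted threshold of 0.05, which 0.00% of all genes passed in edgeR. The clearest separation was in C4b, where every library labelled deficient lay above every control and the fold between the groups was 2.15. Cfb, C3, C2, C3ar1 and C5ar1 had their highest levels in libraries 2 and 3 labelled deficient, while libraries 1 and 4 lay within or close to the control range. Serping1 was slightly higher in all 4 libraries, and in Cd55 and Masp1 the groups overlapped. At an unadjusted p under 0.05, 5 of the 9 genes were higher (C4b, C3ar1, C2, Cfb and Serping1) and 0 lower, beside 13.0% of all genes higher, 11.8% lower and 24.8% in either direction. Differences were positive in 7 of the 9, beside 52.0% of all genes. The groups did not overlap in 2 of the 9, both higher, beside 7.61% of all genes higher and 16.3% in either direction. The median log2 difference was 0.82 over the 9 genes and 0.01 over all genes tested. DESeq2, an alternative test, called 3 of the 9 (C4b, C3ar1 and C2), all higher, beside 7.43% of all genes called higher and 14.2% called in either direction.

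**Figure D1:**
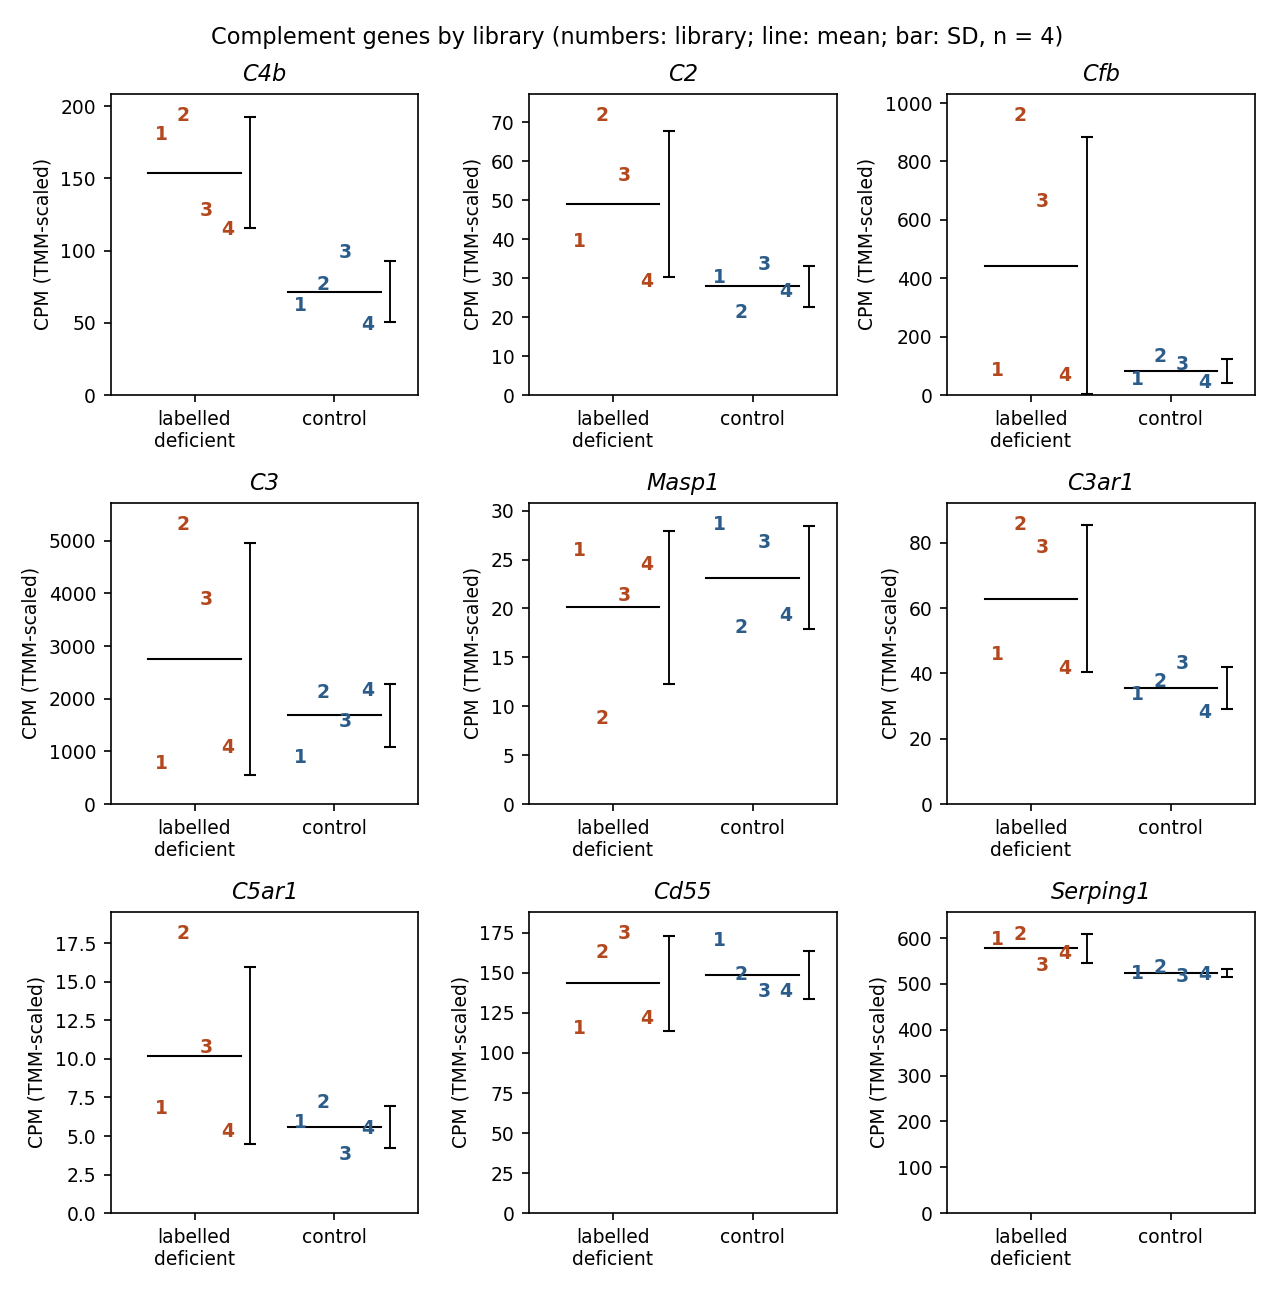
TMM-scaled CPM (vertical axis, from 0) of the 9 complement genes in the libraries labelled deficient (left of each panel) and the controls (right). Each numeral is the library of that number, the horizontal line is the group mean and the bar is the SD (n = 4). C4b lies between 114.6 and 193.3 CPM in the libraries labelled deficient, above every control, whereas Cfb and C3 are far higher in libraries 2 and 3 than in 1 and 4. C3ar1 shows a smaller gap, at 85.5 and 78.7 CPM in libraries 2 and 3 against 45.7 and 41.5 CPM in 1 and 4.

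C4b encodes C4, the thioester protein whose cleaved form anchors the classical and lectin convertase. Its coordinates on chromosome 17 are 34728139 to 34743902 in GRCm38.p6, the build used throughout. It measured 180.3, 193.3, 128.1 and 114.6 CPM in libraries 1 to 4 labelled deficient, against 62.3, 76.3, 98.6 and 49.2 CPM in controls 1 to 4. The lowest library labelled deficient, number 4, was above the highest control, number 3. The mean was 154.1 ± 38.6 CPM in the libraries labelled deficient and 71.6 ± 21.2 CPM in controls (SD, n = 4 each), a log2 difference of 1.11 ± 0.25 with a 95% interval of the fold from 1.46 to 3.18. The edgeR adjusted p was 0.0906 (unadjusted 0.00186), and the exact permutation p (two-sided) was 0.0286, the smallest that 4 against 4 allows. DESeq2 called C4b (adjusted p = 0.00096), and still called it in each of 8 fits that left out 1 library (adjusted p from 3.62e-05 to 0.0118). Over all alternatives its adjusted p ran from 3.62e-05 to 0.252 and its log2 difference from 0.95 to 1.30.

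The near copy C4a, which RefSeq lists as a transcribed pseudogene on the same chromosome (34809092 to 34823460), could share reads with C4b, and how the counting split them is not stated. C4a measured 3.93 ± 0.53 CPM in the libraries labelled deficient and 3.95 ± 0.26 CPM in controls (SD, n = 4 each), a log2 difference of -0.01 ± 0.15 (edgeR adjusted p = 0.982). C4a thus did not differ beyond the spread between libraries. The part of shared reads in the C4b difference was not tested.

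C2, the protease that C4 carries in the convertase, neighbours Cfb on chromosome 17, where C2 spans 34862602 to 34882100 and 87 bases separate the genes. It measured 39.4, 71.6, 56.3 and 29.1 CPM in libraries 1 to 4 labelled deficient, against 30.2, 21.3, 33.6 and 26.5 CPM in controls 1 to 4. Libraries 1, 2 and 3 labelled deficient lay above every control, and library 4 lay inside the control range. The log2 difference was 0.82 ± 0.27 (edgeR adjusted p = 0.134; two-sided exact permutation p = 0.0857). DESeq2 called it at an adjusted p of 0.0347, and the call was lost without control library 1, 2 or 4 or library 2 or 3 labelled deficient (adjusted p from 0.00104 to 0.128 over the 8 fits). Without libraries 2 and 3 together the edgeR log2 difference was 0.30 ± 0.20 (adjusted p = 0.459).

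Masp1 encodes a protease that starts the lectin pathway, on chromosome 16 from 23451785 to 23521240. It measured 25.9, 8.77, 21.4 and 24.4 CPM in libraries 1 to 4 labelled deficient, against 28.5, 18.1, 26.7 and 19.3 CPM in controls 1 to 4. Library 2 labelled deficient was the lowest of all 8, and the other 3 of its group lay within the control range. The log2 difference was -0.20 ± 0.32 (edgeR adjusted p = 0.719), with a 95% interval of the fold from 0.52 to 1.45, and it was 0.050 without library 2.

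Cfb encodes factor B, the protease of the alternative pathway convertase, on chromosome 17 from 34856374 to 34862514. It measured 84.8, 956.2, 663.9 and 67.7 CPM in libraries 1 to 4 labelled deficient, against 52.5, 131.5, 103.8 and 43.7 CPM in controls 1 to 4. Libraries 2 and 3 labelled deficient exceeded every control several times over, while libraries 1 and 4 lay inside the control range. Within the group labelled deficient the highest library was 14.1 times the lowest, against 3.01 times within the controls. The log2 difference was the largest of the 9 genes, 2.42 ± 0.88, with a 95% interval of the fold from 1.32 to 21.7, and did not pass (edgeR adjusted p = 0.152; two-sided exact permutation p = 0.229; DESeq2 adjusted p = 0.0524). Over all alternatives its adjusted p ran from 0.0088 to 0.941. Without libraries 2 and 3 labelled deficient the log2 difference was -0.12 ± 0.44.

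C3, the component on which all pathways converge, lies on chromosome 17 from 57203967 to 57228136. It measured 772.3, 5301, 3880 and 1083 CPM in libraries 1 to 4 labelled deficient, against 890.7, 2119, 1567 and 2160 CPM in controls 1 to 4. As for Cfb, libraries 2 and 3 labelled deficient were the highest, but library 1 was the lowest of all 8 and the controls themselves spread 2.42-fold. The log2 difference was 0.71 ± 0.61 (edgeR adjusted p = 0.483; two-sided exact permutation p = 0.629), with a 95% interval of the fold from 0.623 to 4.31. Without libraries 2 and 3 it was -0.86 ± 0.36 (adjusted p = 0.272), so the direction of C3 turned with these libraries.

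C3ar1, the receptor for C3a, lies on chromosome 6 from 122847140 to 122856157. It measured 45.7, 85.5, 78.7 and 41.5 CPM in libraries 1 to 4 labelled deficient, against 33.4, 37.6, 43.2 and 28.0 CPM in controls 1 to 4. Libraries 1, 2 and 3 labelled deficient lay above every control and library 4 lay below control library 3 only. C3ar1 differed by 0.82 ± 0.26 on the log2 scale (edgeR adjusted p = 0.121; two-sided exact permutation p = 0.0571). DESeq2 called it at an adjusted p of 0.0229, and the call was lost without control library 1, 2 or 4 or library 2 or 3 labelled deficient (adjusted p from 0.00201 to 0.118 over the 8 fits). Without libraries 2 and 3 together the edgeR difference was 0.30 ± 0.16 (adjusted p = 0.376).

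C5ar1, the receptor for C5a, lies on chromosome 7 from 16246743 to 16259540. It measured 6.76, 18.1, 10.7 and 5.27 CPM in libraries 1 to 4 labelled deficient, against 5.91, 7.17, 3.83 and 5.49 CPM in controls 1 to 4. Only libraries 2 and 3 labelled deficient lay above the controls. The log2 difference of 0.87 ± 0.39 did not pass (edgeR adjusted p = 0.209; DESeq2 adjusted p = 0.117, and from 0.0206 to 0.888 over all alternatives), and it was 0.11 ± 0.26 without libraries 2 and 3.

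Cd55 encodes decay-accelerating factor, a membrane protein that dissociates the convertases, on chromosome 1 from 130429798 to 130465009. It measured 115.3, 162.9, 174.3 and 121.4 CPM in libraries 1 to 4 labelled deficient, against 169.9, 149.2, 138.4 and 138.1 CPM in controls 1 to 4. The groups overlapped, with libraries 1 and 4 labelled deficient the lowest of all 8. The log2 difference was -0.05 ± 0.15 (edgeR adjusted p = 0.841), with a 95% interval of the fold from 0.762 to 1.22. Without libraries 2 and 3 it was -0.33 ± 0.10 and both remaining libraries lay below all controls (adjusted p = 0.182); in that fit 15.0% of all genes were lower and 14.8% higher with no overlap. The neighbouring copy Cd55b, listed under its older symbol Daf2, stayed at or under 0.52 CPM in every library.

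Serping1 encodes C1 inhibitor, the serpin that inactivates C1r, C1s and the lectin pathway proteases, on chromosome 2 from 84765360 to 84775444. It measured 597.5, 608.4, 539.1 and 565.7 CPM in libraries 1 to 4 labelled deficient, against 522.3, 536.6, 516.0 and 520.2 CPM in controls 1 to 4. The groups did not overlap, though library 3 labelled deficient and control library 2 lay close together. Serping1 differed by 0.14 ± 0.06 on the log2 scale, a 1.10-fold ratio (95% interval 1.00 to 1.21), which did not pass (edgeR adjusted p = 0.196, unadjusted 0.0471; two-sided exact permutation p = 0.0286). With upper quartile scaling, library totals or a filter at 1 CPM, and in the edgeR fits without control library 1, 3 or 4, the groups overlapped.

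**Figure D2:**
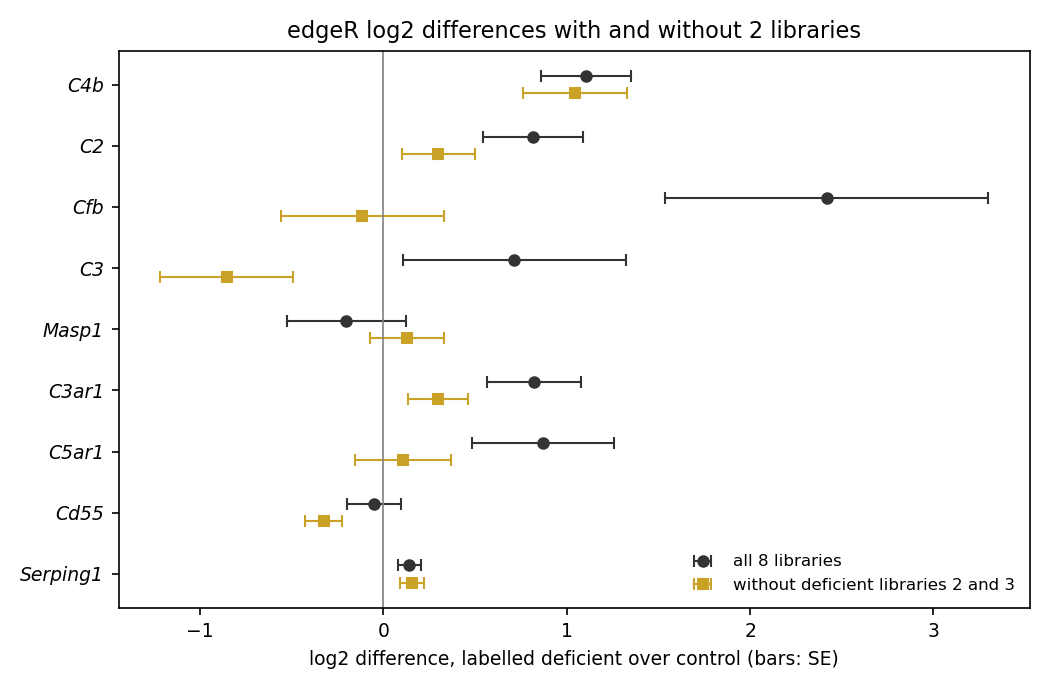
edgeR log2 differences of labelled deficient over control (horizontal axis; bars are SE) for the 9 complement genes, with all 8 libraries (circles) and without libraries 2 and 3 labelled deficient (squares). C4b is at 1.11 and 1.05, and Serping1 at 0.14 and 0.16, while Cfb is at 2.42 and -0.12 and C3 at 0.71 and -0.86.

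The 9 genes thus differed in which libraries were high. Libraries 2 and 3 labelled deficient were the highest 2 of the 8 for Cfb, C2, C3, C3ar1 and C5ar1, which is 5 of 9, beside 18.2% of all genes tested. The comparison without these libraries was made because earlier results of these data set them apart. With both left out, the median over the 9 genes was 0.13, 2 genes were higher at an unadjusted p under 0.05 (C4b and Serping1, beside 8.97% of all genes) and Cd55 was lower (beside 9.48%). DESeq2 then called C4b alone (adjusted p = 0.00829, log2 difference 1.04 ± 0.29), beside 8.44% of all genes.

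Several marker lists were high in the same libraries. The summed level of 7 estrogen-responsive genes found in the table, among them Ltf and Muc1, was 925.2, 5106, 3192 and 745.4 CPM in libraries 1 to 4 labelled deficient, against 550.8, 1194, 939.2 and 875.4 CPM in controls 1 to 4. The 8 luminal epithelial markers summed to 978.9, 2411, 1787 and 1093 CPM in the libraries labelled deficient, against 949.4 to 1208 CPM in controls. Libraries 2 and 3 labelled deficient were thus the highest for both lists, as for Cfb and C3. The 6 uterine gland markers were at their lowest there, at 25.6 and 107.9 CPM, against 325.3 and 1056 CPM in libraries 1 and 4. Their sums varied widely among the controls as well, from 170.2 to 1156 CPM. Libraries 2 and 3 were also the highest for the interferon-stimulated and macrophage lists below and for the decidual list. The 4 decidual markers, 2 of them under 1 CPM in every library, summed to 60.3 and 50.8 CPM in libraries 2 and 3, against 22.4 to 27.2 CPM in controls. Only 2 of these 4 markers were tested, and 1 of the 2 had a positive difference. The part of any of these lists in the levels of Cfb and C3 was not tested.

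The 10 interferon-stimulated genes summed to 808.7, 1338, 997.7 and 630.6 CPM in libraries 1 to 4 labelled deficient, against 389.1 to 733.0 CPM in controls. Of their differences 9 of 10 were positive, beside 52.0% of all genes. The 10 macrophage markers summed to 761.1, 1023, 1067 and 795.8 CPM in libraries 1 to 4 labelled deficient, against 634.1 to 830.2 CPM in controls. Of these markers, 9 of 10 had positive differences (beside 52.0% of all genes) and 4 lay wholly above the controls (beside 7.61% of all genes). Of 7 neutrophil markers, 5 stayed under 1 CPM in every library, S100a8 among them, while Retnlg was at 48.2, 61.7, 23.2 and 58.0 CPM in libraries 1 to 4 labelled deficient, against 43.2, 51.5, 24.3 and 51.0 CPM in controls 1 to 4, and made up most of the list's sum. The 5 mast cell markers summed to 1.33 to 5.29 CPM in the libraries labelled deficient, against 9.93 to 34.7 CPM in controls. The 8 lymphocyte and natural killer markers summed to 93.1 to 190.9 CPM in the libraries labelled deficient, against 54.1 to 91.1 CPM in controls. Macrophages carry both peptide receptors. The part of macrophage number, or of any other cell type, in C3ar1 and C5ar1 was not tested.

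**Figure D3:**
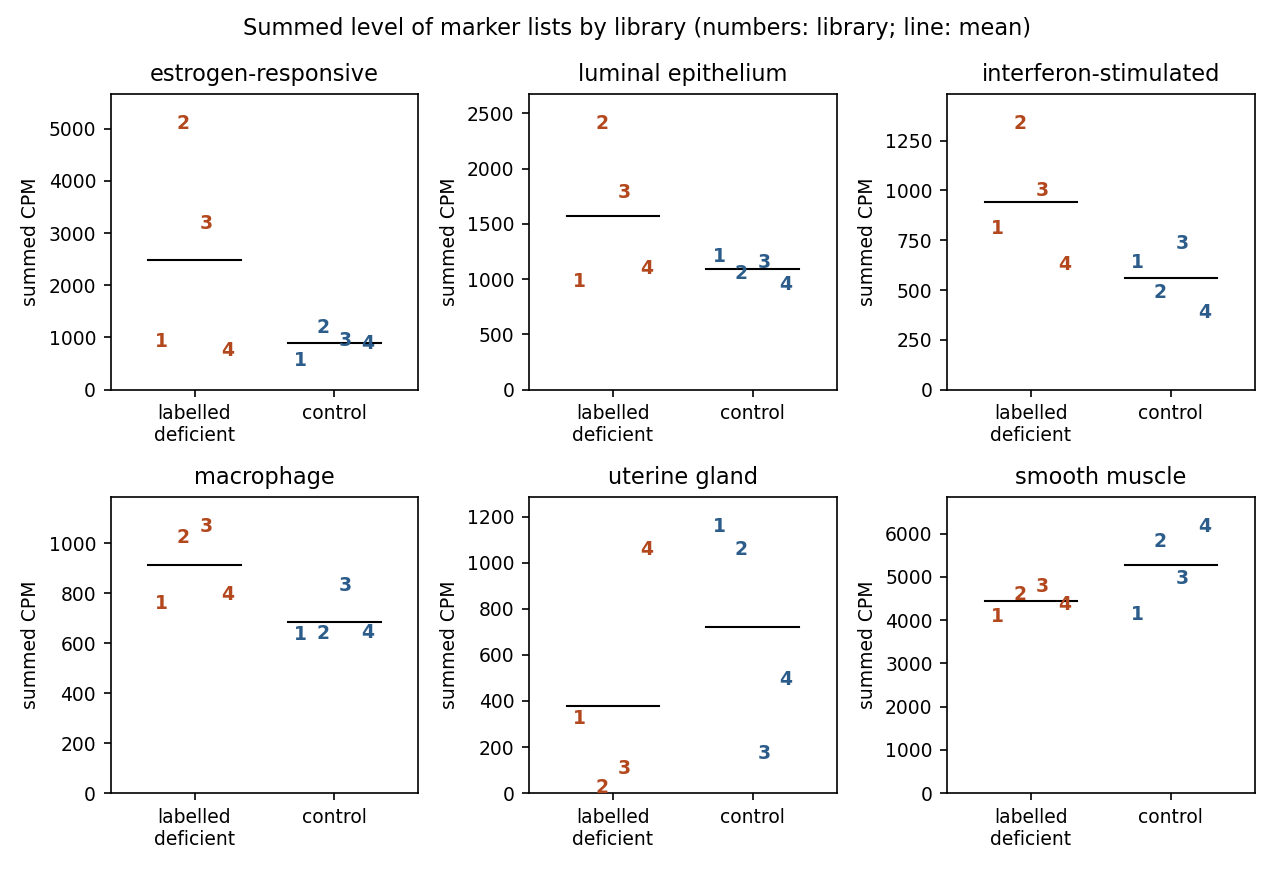
Summed CPM (vertical axis, from 0) of 6 marker lists in the libraries labelled deficient (left of each panel) and the controls (right); numerals are library numbers and lines are group means. Estrogen-responsive and luminal epithelial sums are highest in libraries 2 and 3 labelled deficient, at 5106 and 3192 CPM and at 2411 and 1787 CPM. Interferon-stimulated and macrophage sums are also highest in these libraries.

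The remaining complement genes were listed by role, 49 in all. Of these, 47 were in the table and 38 were tested, while the 9 that failed the filter did not exceed 0.252 CPM. In edgeR 0 of 38 passed the adjusted threshold. At an unadjusted p under 0.05, 8 were higher (beside 13.0% of all genes) and 3 lower (beside 11.8%), and the median log2 difference was -0.03. The groups did not overlap in 6 higher and 2 lower genes, beside 7.61% and 8.66% of all genes. DESeq2 called 11 of the 38, 8 higher and 3 lower, beside 14.2% of all genes.

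Among the initiators, 4 of 10 had positive differences, beside 52.0% of all genes. The genes with the smallest p were C1qc and C1qb, chains of the C1q recognition protein that macrophages make. C1qc averaged 138.9 ± 19.6 CPM in the libraries labelled deficient and 97.8 ± 14.6 CPM in controls (log2 difference 0.51 ± 0.13, edgeR adjusted p = 0.101). C1qb averaged 153.4 ± 20.6 CPM in the libraries labelled deficient and 109.4 ± 17.3 CPM in controls (0.49 ± 0.13, adjusted p = 0.104; SD, n = 4 each). Both lay above the controls in every library labelled deficient.

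In the alternative pathway, properdin (Cfp), which stabilises the convertase, averaged 40.5 ± 14.1 CPM in the libraries labelled deficient and 33.4 ± 2.03 CPM in controls (SD, n = 4 each; log2 difference 0.28 ± 0.21, edgeR adjusted p = 0.435). Factor D, the protease that activates factor B, failed the filter. Of 6 tested genes of the terminal, membrane-attacking pathway, 5 had positive differences (beside 52.0% of all genes) and all were low. Hc, the gene for C5, averaged 1.15 ± 0.49 CPM in the libraries labelled deficient and 0.48 ± 0.06 CPM in controls (SD, n = 4 each; log2 difference 1.25 ± 0.32, edgeR adjusted p = 0.0987), without overlap. C6 was at 0.70 ± 0.56 (edgeR adjusted p = 0.451).

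Of 5 tested receptors, Itgb2 and Itgam had the smallest p. Their products form complement receptor 3, which binds cleaved C3 on phagocytes. Itgam measured 82.5, 340.1, 138.6 and 91.9 CPM in libraries 1 to 4 labelled deficient, against 45.9, 76.6, 52.2 and 49.4 CPM in controls 1 to 4 (log2 difference 1.54 ± 0.45, edgeR adjusted p = 0.111). Itgb2 averaged 99.3 ± 14.2 CPM in the libraries labelled deficient and 67.2 ± 9.17 CPM in controls (SD, n = 4 each; 0.56 ± 0.13, adjusted p = 0.0906). Neither gene overlapped between the groups, and without libraries 2 and 3 they were at 0.64 and 0.45.

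Of 15 tested regulators, 11 had negative and 4 positive differences (beside 52.0% of all genes positive), with a median of -0.16. C4bp had the largest positive difference, 1.65 ± 0.64 (edgeR adjusted p = 0.166), with overlap. It measured 7.20, 51.0, 12.8 and 12.5 CPM in libraries 1 to 4 labelled deficient, against 4.02 to 11.0 CPM in controls. Cfi encodes factor I, the protease that cuts C3b and C4b, and was also higher. It measured 173.5, 251.2, 188.4 and 141.1 CPM in libraries 1 to 4 labelled deficient, against 106.0, 111.8, 65.2 and 44.4 CPM in controls 1 to 4, without overlap (log2 difference 1.20 ± 0.31, edgeR adjusted p = 0.0991). Susd4, a membrane complement inhibitor, averaged 6.69 ± 2.51 CPM in the libraries labelled deficient and 13.8 ± 4.17 CPM in controls (SD, n = 4 each; -1.05 ± 0.33, adjusted p = 0.122).

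**Figure D4:**
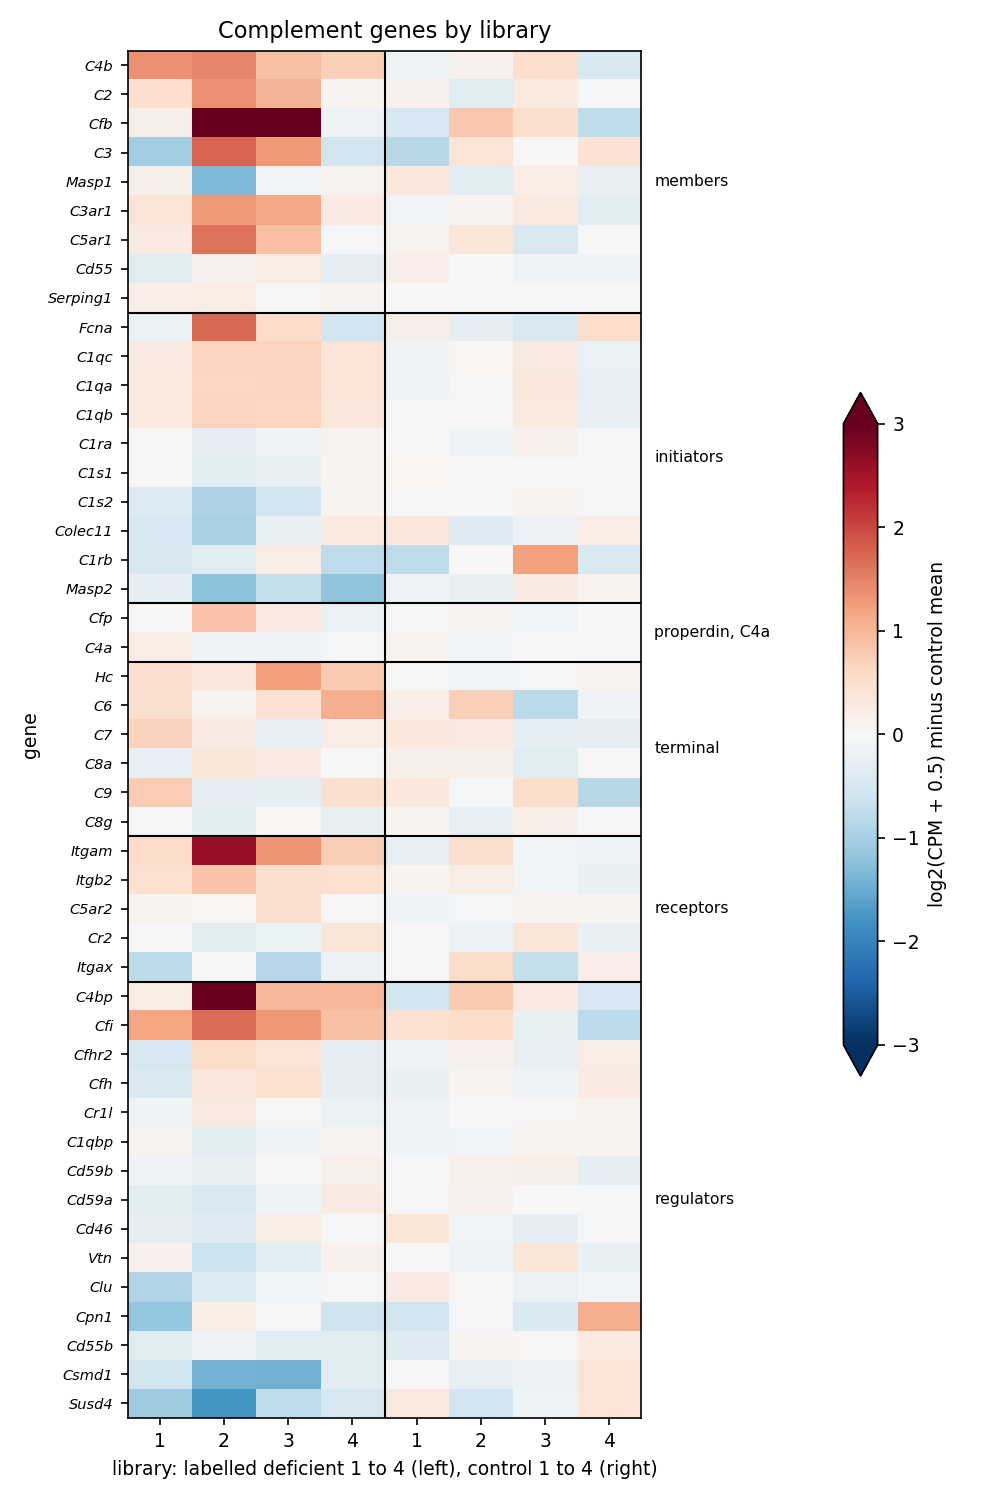
Each row is a complement gene, grouped by role, and each column a library, labelled deficient 1 to 4 on the left and control 1 to 4 on the right; colour is log2(CPM + 0.5) minus the control mean, with values past the scale shown at its end colour. C4b and Cfi are above the control mean in all 4 libraries labelled deficient, and the highest Cfb values stand in libraries 2 and 3.

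For each gene, the genes with the most similar pattern over the 8 libraries were found by Pearson r of log2(CPM + 0.5) among genes with a mean of at least 1 CPM. For C3 these were R3hdm4, Krt7 and Ovol2 (r = 0.99), of which Krt7 and Ovol2 are genes of epithelial cells. Krt7 measured 119.8, 452.9, 373.0 and 169.0 CPM in libraries 1 to 4 labelled deficient, against 140.3, 237.2, 177.8 and 233.8 CPM in controls 1 to 4, the same library order as C3 in its extremes. For C2 they were Batf2, Fos and Trim6 (r = 0.97), for C4b Calml4, Marcks and Letm1 (r = 0.99), and for Cfb Ttc7, Gas7 and Mrps18c (r = 0.99). These values are descriptions over 8 libraries, of which 2 stand apart, and carry no test.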

How the data were processed

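The authors deposited 1 table of whole-number read counts per gene symbol, with no normalization, for 8 mouse uterus libraries. HISAT2 2.2.1, HTSeq 0.10.0 and build mm10 are named, per the submitters' processing notes; strand and other settings are not stated there. RNA was extracted with TRIzol, per the labels' protocols. Columns were matched to samples by the code in each title. Coordinates and older symbols came from a RefSeq table of GRCm38.p6, which holds 22353 of the symbols. It gives no transcript length, so levels are not compared between genes, and sequences were not used here. No 2 libraries matched within counting noise.

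Genes passed filterByExpr and were scaled by TMM. The main test was edgeR 4.0.16 (glmQLFit with legacy=TRUE, in R 4.3.3) with no covariate beside the group. Exact permutation tests used all 70 placements of 4 and 4 on log2(CPM + 0.5). The alternatives were other scalings and filters, DESeq2 1.42.0, limma-voom (limma 3.58.1), robust=TRUE, legacy=FALSE, the replicate number as a block, and leaving out libraries; DESeq2 without libraries 2 and 3 was added after seeing the data. The tests were tested on simulated data. The genes and lists were chosen with earlier results of these data known. Of the other complement genes, up to 2 per role with the smallest p are named, with C4a and Cd55b. Any others named, such as C4bp, were picked after their values were seen.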

Additional observations from a re-analysis of the deposited data

Results flagged for a closer look

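Among 42 groups of 4 libraries (21 genes in each group), 2 held a library far from the other 3, and chance gives such a gap in about 1 of 20 groups. Itgb2 was at 121 CPM in library 2 labelled deficient, while the other 3 of that group lay between 91.2 and 93.2 CPM. Cd55b was at 0.267 CPM in the same library, against 0.15 to 0.17 CPM in the other 3, a level too low to compare.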

How the results depend on the processing

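Of 171 log2 differences of the 9 genes under the alternatives, not counting DESeq2 fits with libraries left out, 161 kept their direction and their side of the threshold, 3 passed it (C4b, C2 and C3ar1 with DESeq2) and 7 turned direction. Without libraries 2 and 3 labelled deficient, Cfb turned to -0.12, C3 to -0.86 and Masp1 to 0.13. Cd55 turned to 0.0069 without control library 1, 0.038 without library 1 and 0.018 without library 4 labelled deficient, and Masp1 to 0.050 without library 2. With 1 library left out Cd55 ran from -0.17 to 0.038 and Masp1 from -0.35 to 0.050. No cause was tested. Over all genes edgeR called 0 (4372 at an unadjusted p under 0.05), DESeq2 2488, limma-voom 2, legacy=FALSE 3 and the replicate block 23. On leaving out 1 library, edgeR called 0 to 2 (2 without control library 2), and 2896 (without control library 4) to 5471 genes had an unadjusted p under 0.05. Of the 9 genes, DESeq2 called 3, 1 to 5 with 1 library left out, and 1 without libraries 2 and 3. With 1 library left out, DESeq2 called from 927 of 17425 genes (without control library 4) to 3961 of 17777 (without library 4 labelled deficient). The 5 calls came from the fit without library 4 labelled deficient. Without libraries 2 and 3 it called 1461 of 17315 genes. The fits with 1 library left out also called Cfb without library 1 or 4, C5ar1 without library 4 and Serping1 without library 3 labelled deficient (adjusted p of 0.0203, 0.0088, 0.0206 and 0.0118), and DESeq2 gave Cfb no adjusted p without library 3. In edgeR, those of the 9 genes at an unadjusted p under 0.05 numbered 5, and 3 to 5 with 1 library left out. They numbered 3 without control library 1, control library 4 or library 2 labelled deficient, and 3 without libraries 2 and 3, where the median moved to 0.13. Those of the 9 genes without overlap numbered 2, and 1 with upper quartile scaling, library totals or the filter at 1 CPM. With 1 library left out they numbered 1 to 4 (1 without control library 1 or 4, 4 without library 4 labelled deficient). Smaller groups overlap less often. Over all genes, 2868 of 17629 had no overlap with all libraries, against 3208 of 17824 without control library 4 and 4933 of 17829 without library 4 labelled deficient. Of the other complement genes DESeq2 called 11. Same-numbered libraries of the 2 groups deviated together for numbers 1 and 2 (r = 0.22 and 0.29) and not for 3 and 4 (-0.0036 and -0.082), so the numbers are not taken as pairs, and the block called 0 of the 9 genes. Intervals and counts cover these libraries only, and 4 per group limit the precision.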

Other observations

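The C1q chains of the first classical component averaged higher, while the differences of its proteases C1ra and C1s1 lay near 0. These genes were chosen after their values were seen, and the difference between them was not tested. C1qa, like C1qb and C1qc, averaged higher in the libraries labelled deficient (log2 difference 0.49 ± 0.15, edgeR adjusted p = 0.112). C1ra and C1s1, the proteases that C1q carries, were at -0.06 ± 0.10 (adjusted p = 0.693) and -0.10 ± 0.10 (adjusted p = 0.527). Their 95% intervals, -0.28 to 0.15 and -0.33 to 0.12, spanned 0. The related C1rb and C1s2 (listed as Gm5077) were at -0.66 ± 0.57 (edgeR adjusted p = 0.487) and -0.45 ± 0.23 (edgeR adjusted p = 0.253). Masp2, the main lectin pathway protease, measured 10.7, 5.27, 7.75 and 5.38 CPM in libraries 1 to 4 labelled deficient, against 11.9, 11.0, 15.6 and 14.2 CPM in controls 1 to 4, below every control (-0.86 ± 0.25, adjusted p = 0.109).

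Itgax, whose product pairs with that of Itgb2 in complement receptor 4, was at -0.50 ± 0.30 (edgeR adjusted p = 0.320), while Itgam was at 1.54 ± 0.45.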
